A study of Mus musculus with 10 samples.

Results

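The Slc25a genes encode the mitochondrial carriers, a family of membrane proteins that pass metabolites, nucleotides, cofactors and inorganic ions across the inner mitochondrial membrane. The members were chosen by name, as every symbol in the deposited table that begins with Slc25a and a number, which gave 40 of 20483 genes. One of the 40, Slc25a5-ps, is annotated as a pseudogene. Family genes with other symbols, among them Ucp2, Mtch1 and Mtch2, are not included, nor are those missing from the table. Sums, ranks and shares below are of these 40 genes and not of the whole family. The family was put forward because Slc25a18 had one of the largest differences between the same libraries, so its lateral and medial values are given as a description with no test, and they support nothing else here. The other 39 symbols were taken whatever their values.

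The libraries came from captured tissue of the nucleus accumbens shell of wild-type mice, 5 from the lateral shell and 5 from the medial shell. The labels give no treatment, age or sex. They call the libraries biological replicates without saying which, if any, came from the same animal. Libraries of the same region that share an animal would make the p-values too small, and a lateral and a medial library that share one would not be compared as a pair here. They give the cells as neural and name no cell type. Per the labels, complementary DNA was made with Geo-seq, which amplifies RNA from few cells collected by laser microdissection. Values are TPM, a unit that divides reads by gene length and scales each library to the same total, so that levels of different genes can be compared. It keeps no sequencing depth, so the depth behind each value is unknown. Captured tissue holds many cell types, so fewer cells of a type and less RNA per cell cannot be told apart.

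Most carriers share a fold built of repeated segments and work by exchanging one substrate for another. The ADP/ATP carriers and the phosphate carrier supply ATP synthesis. The glutamate carriers and the aspartate/glutamate carriers link mitochondria to glutamate metabolism and to the malate-aspartate shuttle, which brings reducing equivalents into the mitochondrion. Slc25a18 and Slc25a22 encode the glutamate carriers, which import glutamate together with a proton, and in mouse brain Slc25a18 is known as a gene enriched in astrocytes.

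The sequences before the gene starts are shown for the glutamate carrier pair and for Slc25a42 and Slc25a17, the members with the lowest adjusted p among the others. They come from RefSeq on GRCm38.p6, and each is the part of the 250 bases before the RefSeq start that also lies before the GENCODE M21 gene start, read 5′ to 3′ along the gene, with CG pairs in capitals.
Slc25a18, chr6:120773518-120773577, plus strand: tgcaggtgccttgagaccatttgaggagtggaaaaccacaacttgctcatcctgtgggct
Slc25a22, chr7:141437893-141438124, minus strand: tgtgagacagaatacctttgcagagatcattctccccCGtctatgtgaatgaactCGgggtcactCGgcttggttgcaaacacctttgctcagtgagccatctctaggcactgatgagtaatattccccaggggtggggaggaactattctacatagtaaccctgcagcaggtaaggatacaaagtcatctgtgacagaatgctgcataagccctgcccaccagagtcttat
Slc25a42, chr8:70212306-70212531, minus strand: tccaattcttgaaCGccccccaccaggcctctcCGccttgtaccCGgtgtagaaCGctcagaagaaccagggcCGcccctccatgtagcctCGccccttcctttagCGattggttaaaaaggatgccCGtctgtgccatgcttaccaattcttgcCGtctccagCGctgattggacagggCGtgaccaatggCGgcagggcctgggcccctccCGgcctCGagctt
Slc25a17, chr15:81360813-81361015, minus strand: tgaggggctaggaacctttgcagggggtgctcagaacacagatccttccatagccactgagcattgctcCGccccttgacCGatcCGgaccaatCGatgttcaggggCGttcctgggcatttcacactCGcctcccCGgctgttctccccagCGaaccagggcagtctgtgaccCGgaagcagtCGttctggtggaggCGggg

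The stretches before the glutamate carrier genes hold few CG pairs, with 0 in the 60 bases of Slc25a18 and 3 in the 232 bases of Slc25a22. Those of the other pair hold 14 in 226 bases for Slc25a42 and 11 in 203 bases for Slc25a17. Over the whole window of 250 bases before the RefSeq start, Slc25a18 had 2 CG pairs, and 989 of 11138 genes with a promoter in the table (8.88%) had as few. The median over those genes was 15. These counts take 1 start per gene. Of the 29 other carriers with a RefSeq promoter, 1, Slc25a34, had as few at that start, with 1 CG pair. Some genes have further starts in the table, and of these the second start of Slc25a21 also had 2 CG pairs. For Slc25a22 the 3 RefSeq starts gave 4, 6 and 4 CG pairs. The plot of CG pairs before the start shows where Slc25a18 lies in both distributions.

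Short motifs were searched on both strands of the 250 bases. TATAAA was found in 1 of 30 carrier promoters, that of Slc25a18, on the opposite strand at 75 to 70 bases before the RefSeq start, against 7.34% of all promoters. That match lies inside the GENCODE gene model, which begins upstream of the RefSeq start. The bases shortly after the RefSeq start of Slc25a18 were not found near the beginning of a GENCODE transcript of that gene. The same held for some other carriers, Slc25a34 among them. Such starts are uncertain, and so are the CG counts and motif matches before them. The GC box GGGCGG was found in 20 of the 30 carrier promoters, against 55.7% of all, and CCAAT in 16, against 36.3%. The promoter of Slc25a18 held neither of these. A match describes these letters in this window and shows no binding.

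**Figure D1:**
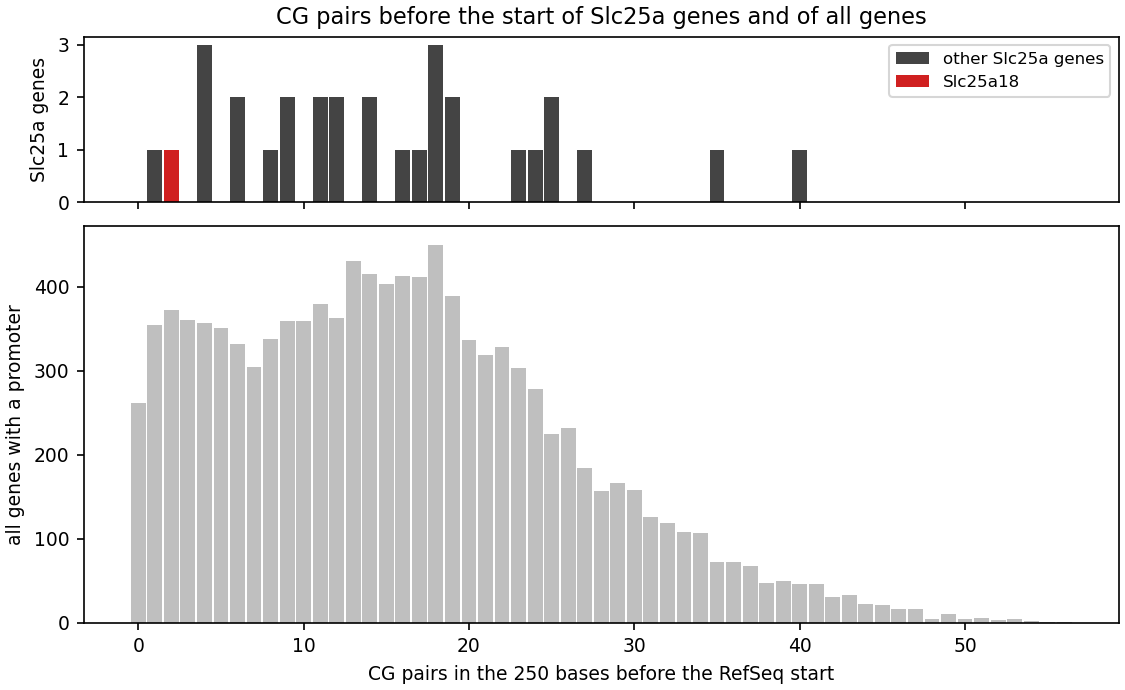
Number of genes (vertical axes) by the count of CG pairs in the 250 bases before the RefSeq start (horizontal axis), for 30 Slc25a genes above and for 11138 genes below. Slc25a18, in red, lies at 2 CG pairs, near the low end of both distributions.

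The table gave a striatal picture in both regions. The 12 markers of striatal projection neurons summed to 3974 to 6250 TPM in lateral and 3992 to 6412 TPM in medial libraries, and the 5 markers of cortical excitatory neurons, of which 2 are in the table, to at most 3.31 and 1.55 TPM. The libraries of the regions also differed in content, with overlapping ranges. Genes at 1 TPM or more numbered 14261 to 15406 in lateral libraries and 15167 to 15882 in medial ones. Mitochondrially encoded genes took 31.9 ± 3.85% of the TPM in lateral and 28.4 ± 3.46% in medial libraries (SD, n = 5 each). Their part in the differences was not tested, beyond the rescaling without mitochondrially encoded genes. The gene AY036118, at 82500 to 144263 TPM in the other libraries, was at 1.4 TPM in lateral replicate 5 and in medial replicate 2. Over the 15596 genes with at least 1 TPM in at least 5 libraries, the median difference in log2(TPM + 1), lateral minus medial, was -0.21, and 68.7% of genes had lower lateral values. All differences below are on that scale, on which changes of genes with low values come out too small.

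Slc25a18 was a low-level carrier in the lateral shell and one of the more abundant carriers in the medial shell. It lies on chromosome 6 from 120773578 to 120794336 on the plus strand of GRCm38. Its level was 0.625, 3.25, 6.50, 0.443 and 8.01 TPM in lateral replicates 1 to 5, and 39.6, 71.5, 62.1, 32.7 and 52.0 TPM in medial replicates 1 to 5. Every lateral library was below every medial one, with lateral replicates 1 and 4 lowest and medial replicate 2 highest. The means were 3.76 ± 3.42 TPM in lateral libraries against 51.6 ± 15.9 TPM in medial ones (SD, n = 5 each), a difference of -3.78. Relative to the median of all genes it was -3.58.

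Among the 40 members, ordered by level within a library, Slc25a18 took ranks 25 to 36 in lateral and ranks 5 to 11 in medial libraries. Its level varied more between lateral libraries (coefficient of variation 90.7%) than between medial ones (30.7%). With a pseudocount of 0.1 in place of 1 the difference was -4.41, and with 5 it was -2.73. Without lateral replicate 4, the lowest library, it was -3.45, and without lateral replicate 5, the highest lateral library, it was -4.11. Without lateral replicate 5 and medial replicate 2, the libraries that stood apart for AY036118, the Slc25a18 log2 difference was -3.98.

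Slc25a22, the other glutamate carrier gene, had overlapping levels in the lateral and medial shell. Its level was 19.4, 20.99, 17.6, 15.9 and 13.9 TPM in lateral replicates 1 to 5, and 14.8, 13.7, 19.4, 21.8 and 39.2 TPM in medial replicates 1 to 5. Medial replicate 5 was the highest library, and the other 4 medial libraries lay close to the lateral ones. The difference was -0.21 (95% interval -0.79 to 0.37, limma adjusted p = 0.755), close to that of the median gene. It turned to 0.019 without medial replicate 5 and to 0.0037 under quantile normalization.

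The ratio of the pair does not depend on the scaling of a library. Slc25a18 made up 3.13%, 13.4%, 27.0%, 2.71% and 36.5% of the summed TPM of both genes in lateral replicates 1 to 5, and 72.8%, 83.9%, 76.2%, 60.1% and 57.1% in medial replicates 1 to 5. Slc25a22 was the more abundant glutamate carrier gene in all 5 lateral libraries, and Slc25a18 in all 5 medial ones. The mean share was 16.6 ± 14.9% in lateral and 70.0 ± 11.2% in medial libraries (SD, n = 5 each). It uses the values for which Slc25a18 was picked out and is a description.

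**Figure D2:**
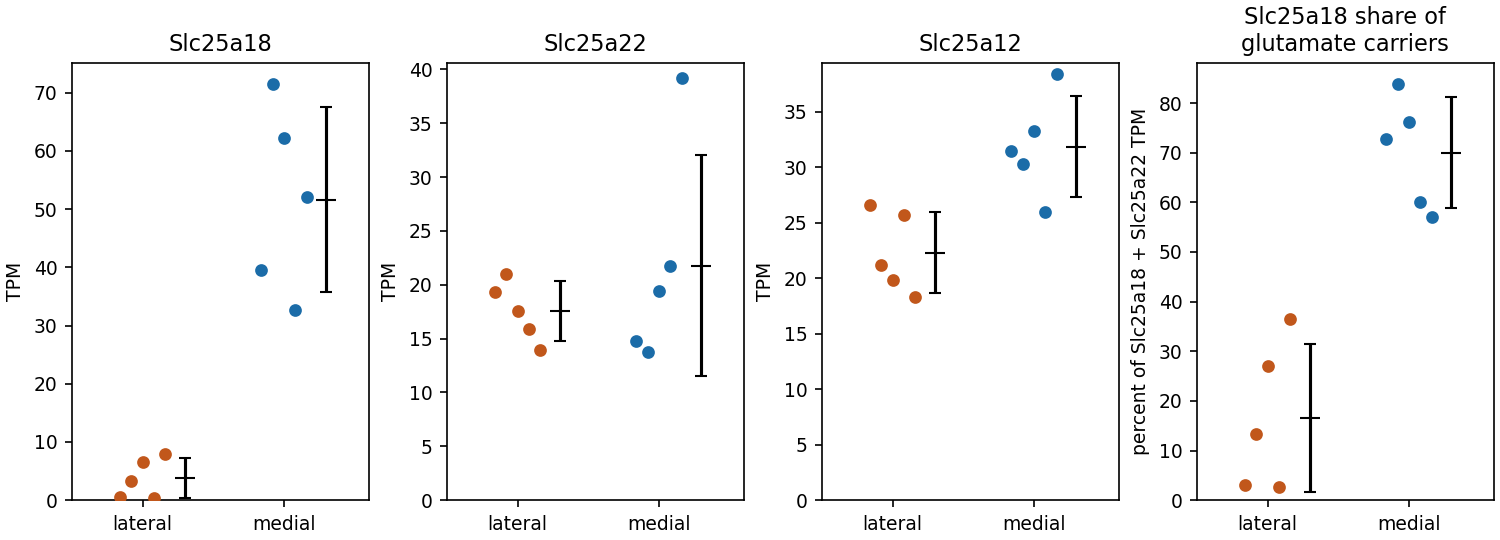
TPM of Slc25a18, Slc25a22 and Slc25a12, and Slc25a18 as a percentage of the summed TPM of Slc25a18 and Slc25a22, in 5 lateral and 5 medial libraries (points in order of replicate number, bars mean ± SD). The groups do not meet for Slc25a18 (0.443 to 8.01 TPM in lateral and 32.7 to 71.5 TPM in medial libraries) and overlap for Slc25a22 and Slc25a12.

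No transcript word of 50 bases in Slc25a18 or Slc25a22 occurred in a transcript of another gene in GENCODE M21, so reads of that length would not be shared between the pair. The last 32 bases of the Slc25a18 gene overlap Atp6v1e1, a subunit gene of the vacuolar proton pump, on the other strand. Atp6v1e1 was at 144 to 209 TPM in lateral and at 134 to 204 TPM in medial libraries, ranges that overlapped. No source used here says whether reads were counted by strand. The other listed genes within 100000 bases, Cecr2, Bcl2l13 and Bid, were at 14.2 TPM or less in every library, and none of them had lateral values that all lay below the medial ones.

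Astrocyte markers were detected in both regions. Over all genes 68.7% had lower lateral values, with a median of -0.21, and 1.1% were called lower in lateral libraries. Of 16 astrocyte genes, all tested, 14 had lower lateral values and 2 higher ones, with a median of -0.34. One passed the threshold of adjusted p under 0.05, the neurotensin receptor gene Ntsr2, at 26.5 ± 6.73 TPM in lateral libraries against 50.1 ± 9.89 TPM in medial ones (SD, n = 5 each, difference -0.90, limma adjusted p = 0.0492). The call of Ntsr2 did not hold in 18 of 22 alternatives, 9 of them fits that left out 1 library, and its adjusted p ran from 0.035 to 0.160. None of the 16 was at 0 in 5 or more libraries, and their summed level was 1018 to 1451 TPM in lateral and 1261 to 1740 TPM in medial libraries, ranges that overlapped. The markers differed among themselves, from Gjb6 and Gja1, gap junction genes, at 9.28 and 48.9 TPM in lateral libraries and at 20.6 and 93.3 TPM in medial ones (differences -1.18 and -1.05, limma adjusted p = 0.217 and 0.128), to the water channel gene Aqp4, at a mean of 19.2 TPM in both regions (difference 0.02), and Gfap, at 14.1 and 3.42 TPM in lateral and medial libraries (1.61, adjusted p = 0.239). These 4 were named after their values were seen. The part of astrocytes in the Slc25a18 difference was not tested.

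**Figure D3:**
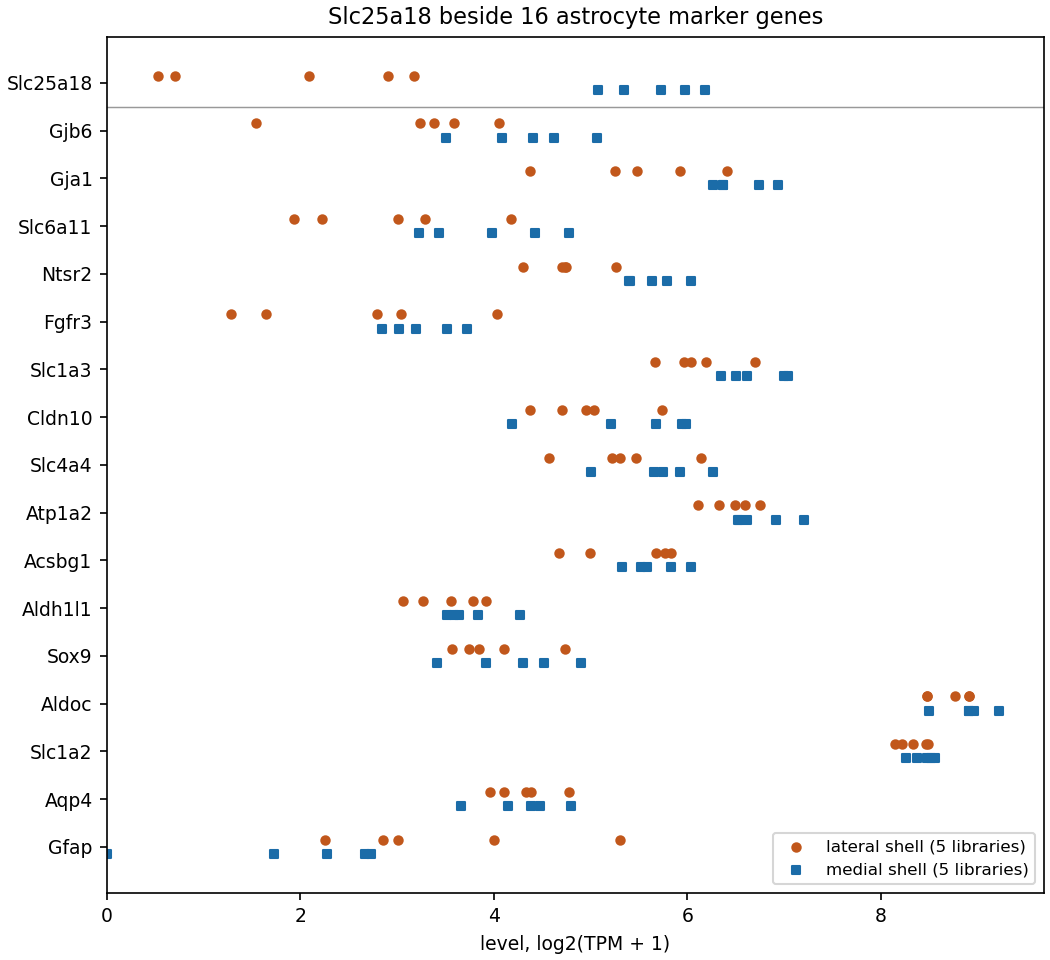
Level, as log2(TPM + 1), of Slc25a18 and of 16 astrocyte marker genes in 5 lateral (circles, above) and 5 medial libraries (squares, below), with markers ordered from the most negative to the most positive lateral minus medial difference. The differences of the 16 markers ran from -1.18 for Gjb6 to 1.61 for Gfap. Slc25a18 (-3.78) was picked out for its large difference, so its wider gap is a description only.

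Among markers of other cell types, all 10 microglia genes were higher in lateral libraries (median 1.00), and C1qa, Tmem119 and Ctss passed (limma adjusted p = 0.035, 0.0381 and 0.0388), each losing its call in 11 to 13 of 22 alternatives. Their summed level was 422 to 657 TPM in lateral and 197 to 426 TPM in medial libraries. Of 11 oligodendrocyte genes 10 were higher in lateral (median 0.91, none passed). Their summed level was 318 to 1049 TPM in lateral and 115 to 518 TPM in medial libraries. Of 8 ependymal and neuroblast genes 5 were tested, all with lower lateral values (median -0.73), and Sox11 passed (10.7 in lateral against 31.6 TPM in medial libraries, limma adjusted p = 0.0332, lost in 10 of 22 alternatives). That list summed to 17.7 to 30.8 TPM in lateral and 38.2 to 65.1 TPM in medial libraries. No member passed in the lists of striatal projection neurons (12 genes, median 0.03), interneurons (8 genes, median 1.43, summed level 540 to 5737 TPM in lateral and 31.2 to 1776 TPM in medial libraries), oligodendrocyte precursors (6 genes, median 0.11) or endothelial and mural cells (10 genes, median 0.25). Pdgfrb, Ccdc153 and Neurod6, markers of mural, ependymal and cortical excitatory cells, were listed at 0 in 5 or more libraries. Over all genes 68.7% had lower lateral values, and 1.1% were called lower and 0.385% higher in lateral libraries. The part of these cell types in the carriers' values was not tested.

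Apart from Slc25a18, 35 of the 39 members passed the filter on low values, and none passed the test between the regions. Over all genes 1.1% were called lower and 0.385% higher in lateral libraries (limma adjusted p under 0.05). At an unadjusted p under 0.05 there were 7 of the 35 carriers, all lower in lateral, where 12.3% of all genes were lower and 3.03% higher at that level. All lateral values lay below all medial values for 1 of the 35, Slc25a42, against 3.39% of all genes. The median difference of the 35 carriers was -0.23, close to the -0.21 of all genes, and 26 of the 35 had lower lateral values (74.3%, against 68.7% of all genes). The number with lower lateral values depended on the scaling, with 19 of 35 under median-ratio scaling, where the median of all genes was -0.02, and 21 of 35 under quantile normalization.

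**Figure D4:**
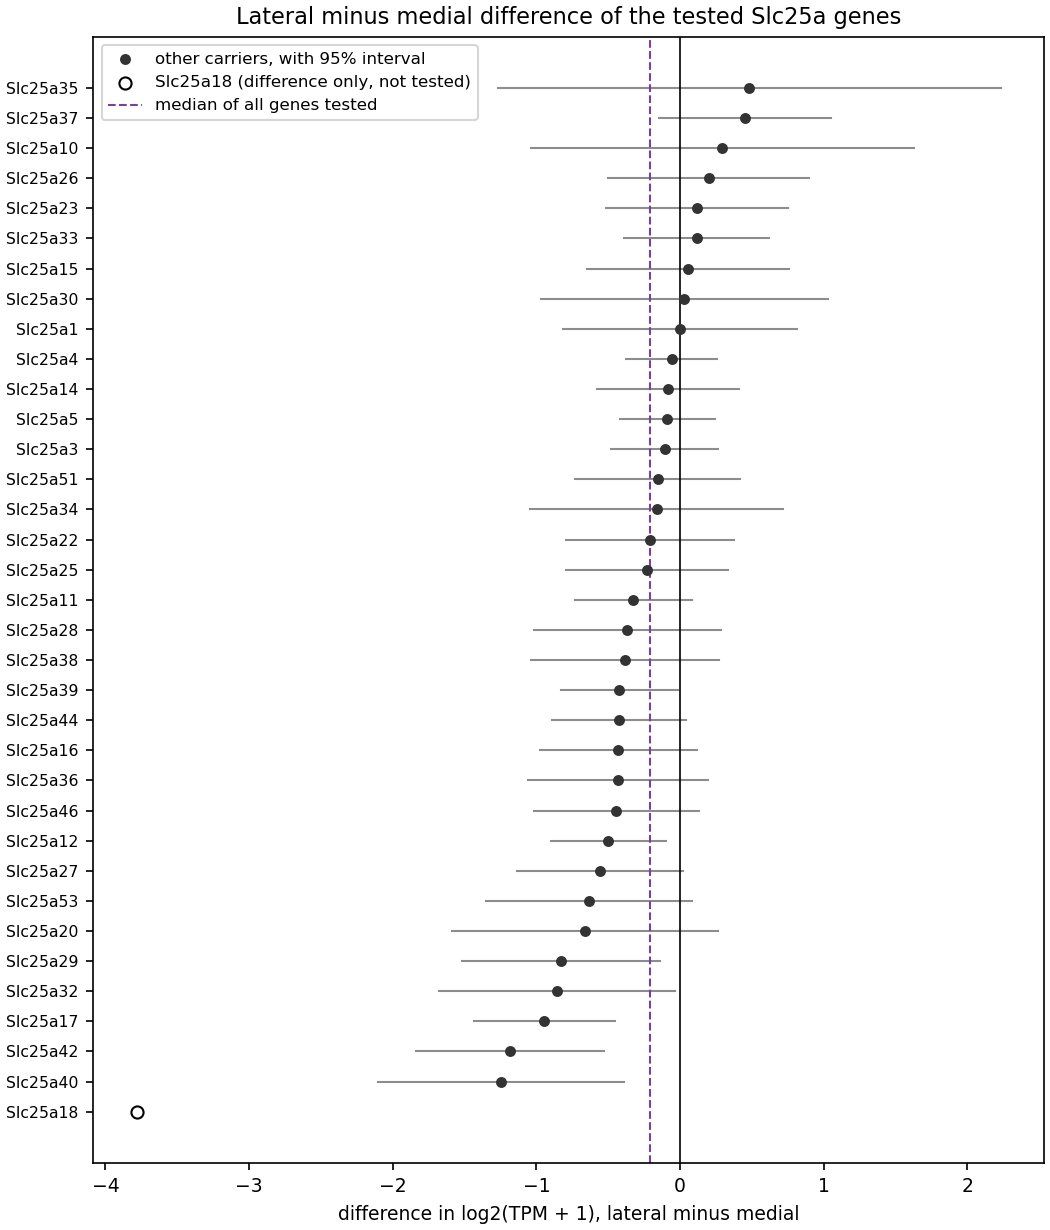
Difference in log2(TPM + 1), lateral minus medial, of 35 of the 36 members that passed the filter on low values, in order, with 95% limma intervals for all but Slc25a18 (open circle), which was not tested. The dashed line is the median of all genes tested (-0.21), and the members other than Slc25a18 run from -1.24 for Slc25a40 to 0.48 for Slc25a35.

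The carriers of ADP, ATP and phosphate were the most abundant and differed little between the regions. Slc25a4 and Slc25a5, which encode the ADP/ATP carriers found in most tissues, were at 612 ± 44.0 and 556 ± 53.0 TPM in lateral libraries and at 643 ± 109 and 597 ± 112 TPM in medial libraries (SD, n = 5 each). Slc25a3, the mitochondrial phosphate carrier gene, averaged 163 ± 29.7 TPM in lateral libraries against 175 ± 30.3 TPM in medial ones. Slc25a11, the oxoglutarate/malate carrier of the malate-aspartate shuttle, followed at 118 ± 22.4 and 149 ± 32.7 TPM in lateral and medial libraries.

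The order of these genes, Slc25a4, Slc25a5, Slc25a3 and Slc25a11, was the same in 10 of 10 libraries, although the ranges of Slc25a4 and Slc25a5 over libraries overlapped. Slc25a4 made up 50.1% to 56.1% of the summed TPM of the ADP/ATP pair. Together the leading 4 held 73.2 ± 2.43% of the members' TPM in lateral and 69.1 ± 1.79% in medial libraries (SD, n = 5 each). That total holds Slc25a18, picked out for its difference, so these shares are a description. From Slc25a14, at rank 5, downward, every pair of neighbours in the order of mean level changed places in at least 1 of the 10 libraries.

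None of these abundant genes passed, and their intervals also hold moderate differences. The difference was -0.06 for Slc25a4 (95% interval -0.37 to 0.26), -0.11 for Slc25a3 (-0.48 to 0.27) and -0.33 for Slc25a11 (-0.73 to 0.08), with limma adjusted p of 0.887, 0.812 and 0.443. The small negative values of Slc25a4 and Slc25a3 became 0.15 and 0.10 under median-ratio scaling. Of the 1644 transcript words of 50 bases in Slc25a5, 33.8% also occur in transcripts of other genes, Gm5560 first among them, so its level is uncertain. Slc25a4 shared none.

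Among the amino acid carriers, Slc25a12 encodes the aspartate/glutamate carrier of neurons, called aralar. Its level was 26.6, 21.2, 19.8, 25.7 and 18.3 TPM in lateral replicates 1 to 5, and 31.5, 30.3, 33.3, 25.95 and 38.4 TPM in medial replicates 1 to 5. The groups met only where lateral replicate 1 stood above medial replicate 4. The difference was -0.50 (standard error 0.19, 95% interval -0.90 to -0.10) and did not pass (limma adjusted p = 0.224). Slc25a13, the other aspartate/glutamate carrier gene, known from liver as citrin, was at 3.65 TPM or less in every library and was listed at 0 in 3, so it was not tested.

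Slc25a29, a carrier of basic amino acids, averaged 12.3 ± 5.38 TPM in lateral libraries against 21.2 ± 5.59 TPM in medial ones (SD, n = 5 each, difference -0.83, limma adjusted p = 0.239). Slc25a44, a carrier of branched-chain amino acids, was at 30.9 ± 7.87 and 41.2 ± 7.93 TPM in lateral and medial libraries (difference -0.43, adjusted p = 0.373). Slc25a38, which supplies glycine for haem synthesis, was at 12.2 ± 5.37 and 15.9 ± 5.40 TPM (difference -0.38, adjusted p = 0.590). Apart from Slc25a18, 5 of the 6 tested amino acid carriers had lower lateral values and none passed. The exception was Slc25a15, the ornithine carrier of the urea cycle, with a difference of 0.06.

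The carriers of cofactors, iron and glutathione were all tested, and none of the 11 genes passed over all genes. Of the 11, 9 had lower lateral values, where 68.7% of all genes did, with a median of -0.42 against -0.21 over all genes. At an unadjusted p under 0.05, 5 of them were lower, where 12.3% of all genes were. Slc25a17 encodes a carrier of coenzyme A and adenine nucleotide cofactors in the peroxisomal membrane, so it belongs to the family by sequence and not by organelle. It was at 32.4, 23.8, 18.8, 40.6 and 21.7 TPM in lateral replicates 1 to 5, and at 61.8, 57.0, 38.5, 47.7 and 57.5 TPM in medial replicates 1 to 5. Lateral replicate 4 stood above medial replicate 3, and all other lateral libraries were below all medial ones. The difference was -0.95 (standard error 0.23, 95% interval -1.43 to -0.46, limma adjusted p = 0.0613). Without lateral replicate 4 it was -1.10 and passed (adjusted p = 0.0395). Over the 22 alternatives its adjusted p ran from 0.0395 to 0.257, the highest being without lateral replicate 5 and medial replicate 2.

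Slc25a42, the mitochondrial carrier of coenzyme A, was at 2.88, 5.10, 5.42, 2.67 and 3.29 TPM in lateral replicates 1 to 5, and at 8.02, 9.83, 7.65, 9.16 and 15.8 TPM in medial replicates 1 to 5. The groups did not overlap, and medial replicate 5 stood apart at the top. The difference was -1.18 (standard error 0.30, 95% interval -1.84 to -0.53), which missed the threshold (limma adjusted p = 0.0763) and did so under all 22 alternatives (0.0638 to 0.254).

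Slc25a39 and Slc25a40 encode the carriers that import glutathione into mitochondria. Slc25a40 was at 1.02, 5.65, 2.39, 4.84 and 2.18 TPM in lateral replicates 1 to 5, and at 8.33, 11.04, 9.16, 10.5 and 3.82 TPM in medial replicates 1 to 5. Only medial replicate 5 fell within the lateral range. The difference was -1.24 (95% interval -2.10 to -0.39, limma adjusted p = 0.154). Slc25a39, the more abundant of the pair, averaged 31.0 ± 7.33 TPM in lateral libraries against 41.3 ± 4.95 TPM in medial ones (SD, n = 5 each, difference -0.42, adjusted p = 0.305).

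Slc25a32, a carrier of folate and FAD, averaged 2.89 ± 1.36 TPM in lateral libraries against 5.72 ± 1.58 TPM in medial ones (difference -0.86, limma adjusted p = 0.302). The mitoferrin gene Slc25a37, which imports iron, was among the few carriers with a higher lateral mean, at 9.14 ± 1.90 TPM against 6.55 ± 2.22 TPM in medial libraries (difference 0.45, 95% interval -0.15 to 1.05, adjusted p = 0.467). The other mitoferrin gene, Slc25a28, was at 6.21 ± 1.72 and 8.34 ± 2.55 TPM in lateral and medial libraries (SD, n = 5 each). Slc25a16, Slc25a26 (S-adenosylmethionine) and Slc25a51 (NAD) had differences between -0.43 and 0.20, and their groups overlapped.

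Of the remaining nucleotide carriers, Slc25a23, an ATP-Mg/phosphate carrier regulated by calcium, averaged 43.8 ± 19.9 TPM in lateral libraries against 38.5 ± 11.7 TPM in medial ones (difference 0.12, limma adjusted p = 0.882). Lateral replicates 2 and 3 were at 67.1 and 63.8 TPM, and leaving out the first gave a difference of -0.059 and leaving out the second -0.041. Slc25a33, a pyrimidine nucleotide carrier, was at 23.9 ± 6.70 and 21.7 ± 4.46 TPM in lateral and medial libraries (difference 0.12, adjusted p = 0.854). It turned to -0.014 without lateral replicate 2 and to -0.0084 without medial replicate 3. Of the 7 nucleotide and phosphate carriers, Slc25a23 and Slc25a33 were those with higher lateral values, and the lowest of the other 5 was Slc25a36 (-0.43, adjusted p = 0.514), another pyrimidine nucleotide carrier. Among the carboxylate carriers beside Slc25a11, the citrate carrier gene Slc25a1 was at 49.4 ± 25.2 and 46.6 ± 18.4 TPM in lateral and medial libraries (SD, n = 5 each, difference 0.00, 95% interval -0.81 to 0.82). Slc25a10, the dicarboxylate carrier, was at 7.98 TPM or less in every library, with a difference of 0.30 (adjusted p = 0.860).

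Slc25a20, which exchanges acylcarnitines for carnitine in fatty acid oxidation, averaged 9.75 ± 4.71 TPM in lateral libraries against 14.3 ± 4.94 TPM in medial ones (SD, n = 5 each, difference -0.66, limma adjusted p = 0.491). Lateral replicate 1 was at 1.67 TPM and the other 4 lateral libraries at 10.1 to 13.4 TPM. Without lateral replicate 1 the difference was -0.21.

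The brain-enriched genes Slc25a14 and Slc25a27, related in sequence to the uncoupling proteins, were at 62.0 ± 11.6 and 15.8 ± 5.45 TPM in lateral libraries and at 67.6 ± 20.7 and 22.8 ± 4.01 TPM in medial libraries (SD, n = 5 each). Neither passed (limma adjusted p = 0.899 and 0.348), and Slc25a14 changed sign under median-ratio scaling (0.13) and quantile normalization (0.03). Slc25a46, a divergent member of the outer mitochondrial membrane that takes part in mitochondrial fission and fusion, was at 30.7 ± 12.1 and 40.5 ± 9.04 TPM in lateral and medial libraries (difference -0.44, adjusted p = 0.454). Slc25a34, whose substrate is little characterised, was at 5.17 ± 2.35 and 6.20 ± 3.32 TPM (difference -0.16, adjusted p = 0.885). Slc25a30 and Slc25a53 averaged under 6 TPM in both regions, with differences of 0.03 and -0.63 (adjusted p = 0.983 and 0.386).

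Several members were near the floor of the table. Slc25a21 was listed at 0 in 9 of 10 libraries, Slc25a47 in 6 and Slc25a35 in 5. Slc25a21, Slc25a47, Slc25a13 and the pseudogene Slc25a5-ps did not reach 1 TPM in 5 libraries and were not tested. Of the transcript words of 50 bases in Slc25a35, 25.1% are shared with Rangrf, which overlaps it on the other strand, so its level of up to 12.3 TPM is uncertain.

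**Figure D5:**
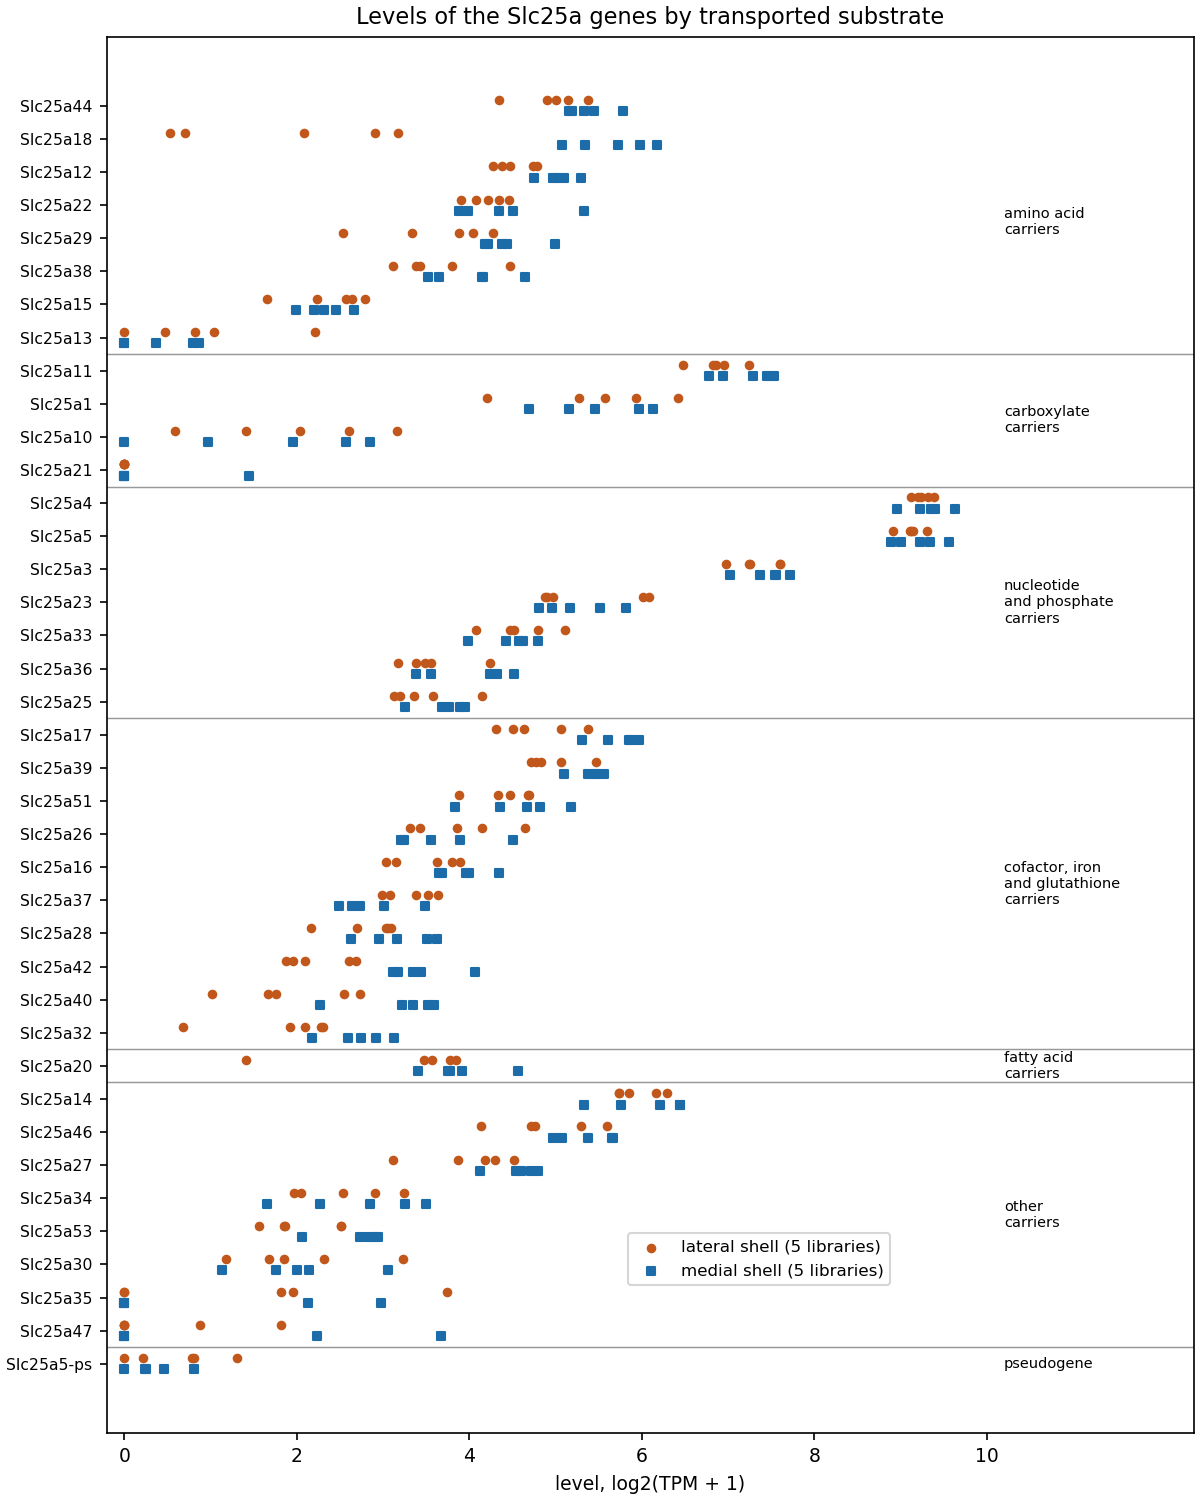
Level, as log2(TPM + 1), of 39 of the 40 members in 5 lateral (circles, above) and 5 medial libraries (squares, below), grouped by transported substrate and ordered by mean level within each group. Slc25a4 and Slc25a5 lie highest in both regions, and the groups stand apart for Slc25a18 and Slc25a42.

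Summed over all 40 members, Slc25a18 included, the carriers took 1979 ± 149 TPM in lateral libraries against 2261 ± 369 TPM in medial ones (SD, n = 5 each). The ranges, 1807 to 2162 TPM in lateral and 1805 to 2795 TPM in medial libraries, overlapped. Of the TPM outside the mitochondrially encoded genes this was 0.291 ± 0.0119% in lateral and 0.315 ± 0.0422% in medial libraries. The total used there still holds AY036118, which was at 1.4 TPM in lateral replicate 5 and medial replicate 2 and far higher in the other libraries. The amino acid carriers summed to 90.4 to 115 TPM in lateral and 154 to 230 TPM in medial libraries. Slc25a18, picked out for its difference, is part of that sum. It added 0.443 to 8.01 TPM in lateral and 32.7 to 71.5 TPM in medial libraries, so the separated ranges show nothing about the class. The cofactor, iron and glutathione carriers summed to 129 to 178 TPM in lateral and 165 to 230 TPM in medial libraries, ranges that overlapped.

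In the 4 lists examined of genes other than the 40 members, Gpd1 alone passed the test. Over all genes 0.385% were called higher and 1.1% lower in lateral libraries. In the list of glutamate and glutamine handling, 15 of 18 genes had lower lateral values, where 68.7% of all genes did, and none passed. The median of this list was -0.13, less negative than the -0.21 of all genes. The list summed to 898 to 1072 TPM in lateral and 1082 to 1302 TPM in medial libraries, ranges that did not overlap, and the sum was not tested. It shares Slc1a2 and Slc1a3 with the astrocyte list, and Got1 and Got2 with the redox shuttle list, so these lists are not independent. Its lowest p belonged to Glud1, the mitochondrial glutamate dehydrogenase, at 61.1 ± 13.9 TPM in lateral libraries against 95.3 ± 21.2 TPM in medial ones (difference -0.64, limma adjusted p = 0.165), and to the astrocyte glutamate transporter gene Slc1a3 (difference -0.59, adjusted p = 0.199), which the astrocyte list also holds. Among 6 redox shuttle enzymes, with 3 lower and 3 higher and a median of -0.02, Gpd1 was higher in lateral. Gpd1, the cytosolic glycerol-3-phosphate dehydrogenase of the glycerophosphate shuttle, averaged 30.0 ± 4.91 TPM in lateral libraries against 12.8 ± 4.53 TPM in medial ones (SD, n = 5 each, difference 1.22, adjusted p = 0.031), with no overlap. Its call was lost in 11 of 22 alternatives, 8 of them fits without 1 library, and its adjusted p ran from 0.00941 to 0.137.

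In the last 2 lists the counts are to be read beside the 68.7% of all genes with lower lateral values and their median of -0.21. Of 14 tested genes for mitochondrial transporters with other symbols, 9 had lower lateral values (median -0.27) and none passed. Ucp2, Mtch1 and Mtch2 in this list belong to the carrier family under other names. Mcu, the pore of the calcium uniporter, averaged 11.6 ± 4.05 TPM in lateral libraries against 28.2 ± 12.1 TPM in medial ones (difference -1.19, limma adjusted p = 0.0628). It passed without lateral replicate 3 (0.0446) and in none of the other 21 of 22 alternatives, with an adjusted p of up to 0.189. Mpc1, a subunit of the pyruvate carrier, was at 34.3 ± 9.68 and 55.6 ± 9.93 TPM (difference -0.70, adjusted p = 0.128). In the machinery that imports carriers into mitochondria, 9 of 13 genes had lower lateral values (median -0.12) and none passed, the lowest p being that of Timm29 (difference -0.62, adjusted p = 0.249) and Tomm70a (0.29, adjusted p = 0.386).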

How the data were processed

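The deposited table holds TPM made by the authors, 1 column for each of 10 libraries, each summing to 1000000. Tools listed in the submitters' processing notes, without roles, are featureCounts 1.6.3, StringTie 1.3.4, HISAT2 2.1.0 and fastp 0.20.0, with GRCm38 as genome. No source used here names the annotation or the use of strand. Coordinates came from GENCODE M21, which holds each of the 20483 symbols.

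The test was limma 3.58.1 (R 4.3.3), with moderated variances that follow a trend over mean level, on log2(TPM + 1) of 15596 genes with at least 1 TPM in at least 5 libraries, with Benjamini-Hochberg adjusted p under 0.05 as threshold. Intervals are at the 95% level. The code was checked on simulated data. The 22 alternatives changed the pseudocount, filter, scaling, variance model, replicate block and libraries. Members, gene lists and the rule for named genes were chosen with earlier results of these data known. The rule takes Slc25a18, Slc25a22, the 8 other carriers with the lowest p, the most abundant of each substrate, and from each list the genes that passed or the 2 lowest p. The text names part of these and, beside the rule, further carriers and markers that complete a class. One carrier enters the counts and sums and is not reported by itself here. Figures were drawn with matplotlib 3.10.9.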

Additional observations from a re-analysis of the deposited data

Results flagged for a closer look

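In 7 of the 79 groups of 5 values examined, 1 library lay far from the others, by Dixon's criterion (the gap to the nearest value over the range of the group). Chance flags about 1 in 20 groups where values are normally distributed. TPM values, some of them at 0, need not be, so the count is not read against that rate. Slc25a20 was at 1.67 TPM in lateral replicate 1, against 10.1 to 13.4 TPM in the other lateral libraries. Slc25a42 was at 15.8 TPM in medial replicate 5, against 7.65 to 9.83 TPM in the other medial libraries. Slc25a29 was at 30.9 TPM in medial replicate 2, against 17.2 to 20.6 TPM. Slc25a36 was at 17.96 TPM in lateral replicate 2, against 8.03 to 10.8 TPM. Slc25a35 was at 12.3 TPM in lateral replicate 3, against 0 to 2.88 TPM. The other 2 values were of genes near the floor of the table, Slc25a13 at 3.65 TPM in lateral replicate 2 (up to 1.05 TPM in the others) and Slc25a21 at 1.73 TPM in medial replicate 3, with the other medial libraries listed at 0.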

How the results depend on the processing

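The Slc25a18 difference of -3.78 kept its sign under all 22 alternatives (-4.41 to -2.73), moving by more than the spread between libraries only with a pseudocount of 5 (-2.73). Leaving out 1 library gave -4.11 to -3.45. No other carrier was called higher in lateral under any alternative, and 1 was called lower, Slc25a17 without lateral replicate 4 (range 0 to 1 over the 10 fits without 1 library). The median difference of the carriers ran from -0.39 to -0.04 over all alternatives.

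Over all genes the counts of 60 on the lateral and 171 on the medial side moved more. They were 34 and 111 with no mean-variance trend, 19 and 45 with the replicate block, and 12 and 31 without lateral replicate 5 and medial replicate 2. Those in medial were 107 with a pseudocount of 0.1, 82 under median-ratio scaling and 100 under quantile normalization. Medial calls made up 48.2% of all calls under median-ratio scaling and 53.8% under quantile normalization, against 74.0% in the model reported. Without 1 library the counts were 23 to 69 in lateral and 56 to 188 in medial. Libraries with the same replicate number did not vary together (correlations of their deviations -0.053 to 0.042), so the numbers were not taken to pair them, and the replicate block changed the call of no carrier.

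Differences near 0 changed sign without passing in either direction. Median-ratio scaling did so for Slc25a4 (0.15), Slc25a3 (0.10), Slc25a14 (0.13) and Slc25a34 (0.017), quantile normalization for Slc25a14 (0.031), Slc25a34 (0.12) and Slc25a22 (0.0037), and rescaling without mitochondrially encoded genes for Slc25a4 (0.016). Over the 10 fits without 1 library the differences ran from -0.34 to 0.019 for Slc25a22, from -0.15 to 0.023 for Slc25a4, from -0.059 to 0.26 for Slc25a23, from -0.43 to 0.034 for Slc25a34, from -0.014 to 0.25 for Slc25a33 and from -0.26 to 0.021 for Slc25a14. Differences of other uncalled carriers that moved by over 1.5 times without 1 library were those of Slc25a44 (-0.27) and Slc25a27 (-0.34) without lateral replicate 5, Slc25a46 (-0.25) without lateral replicate 3, Slc25a32 (-0.57) and Slc25a20 (-0.21) without lateral replicate 1, Slc25a38 (-0.59 to -0.23) and Slc25a3 (-0.21 to -0.018). Without lateral replicate 5 and medial replicate 2, Slc25a34 was at 0.18 and Slc25a3 at 0.0066. The cause of these changes was not tested. The depth of the libraries is unknown, which limits what can be said of carriers listed near 0.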
